A study of Homo sapiens with 12 samples.

Results

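The 37 genes examined here are those of glucose uptake, glycolysis and lactate export together with genes of the cellular response to low oxygen. They were taken by symbol from a table of normalized expression values, where 34 of the 37 were found among 11178 genes and all 34 passed the filter on low values. ALDOC, CA9 and CA12 were not analysed here. The 34 comprise 4 transporters, 16 glycolytic enzymes, 4 switches of glycolytic flux and pyruvate entry, the oxygen-regulated subunit HIF1A with 2 oxygen sensors, and 7 targets of hypoxia-inducible factor (HIF) with roles outside glucose metabolism.

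The cells were U251-APP, a human glioblastoma line of astrocytic origin with stable expression of a mutant amyloid precursor protein (K670N and M671L), and every group carried that transgene. Total RNA was sequenced from wild-type cells, from cells in which CTCF-A, a site bound by the insulator protein CTCF, was deleted (labelled CTCF-A KO) and from cells in which another such site, CTCF-B, was deleted (labelled CTCF-B KO), with 4 libraries per group. Cas9 and a guide RNA on each side of the site made the deletions, single-cell clones were grown and the region was sequenced, and the treatment label reads CRISPR/Cas9 editing for all 3 groups. Whether the libraries within a group came from different clones or from 1 clone is not said in the labels, which also give no coordinates for the sites, so the p-values measure the spread between these libraries, which may be technical. Growth protocols describe one medium and a standard humidified incubator and name no low-oxygen treatment.

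Glycolysis splits glucose into pyruvate, which is either reduced to lactate and exported or passed into mitochondria. When oxygen is scarce, prolyl hydroxylases of the EGLN family no longer mark HIF1A for destruction, and HIF binds short DNA elements with the core letters ACGTG or GCGTG and raises the transcription of glucose transporters, glycolytic enzymes, VEGFA and ADM. Glioma cells are known for high glycolysis even where oxygen is present. HIF1A is controlled mainly at the protein level, which RNA values do not show.

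Promoter letters are shown first because many of these genes are classical HIF targets. The 250 bases upstream of each RefSeq start (GRCh38.p14) were searched on both strands for ACGTG and GCGTG, where CACGTG counts once on each strand and is also the E-box bound by other factors. Of the 34 genes, 28 had at least 1 start in the table, the other 6 being SLC2A3, SLC16A1, PFKFB2, VEGFA, NDRG1 and BNIP3L. The 28 genes had 56 starts in all, and 32 of these (57.1%) held a match. The share was 56.6% among the starts of all genes tested and 43.2% among all 35116 starts, so per start the letters were about as frequent here as in other expressed genes. For ACGTG alone the share was 33.9% against 23.0% in genes tested, and for GCGTG 32.1% against 44.8%. A gene with several starts counts more than once in these shares. By gene, 23 of the 28 held a match, and no such share was taken over all genes. Of the enzyme starts 18 of 36 held a match. Of the starts of HIF targets outside glucose metabolism (ADM, ANKRD37, KDM3A and ERO1A) 5 of 5 did. The stretches below are from genes that rose or fell and from ANKRD37 and ERO1A, which did neither, with matches in capitals.
PGK1, chrX:78104008-78104097, plus strand: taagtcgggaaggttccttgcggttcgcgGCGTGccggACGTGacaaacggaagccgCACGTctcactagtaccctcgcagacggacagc
GAPDH, chr12:6535143-6535232, plus strand: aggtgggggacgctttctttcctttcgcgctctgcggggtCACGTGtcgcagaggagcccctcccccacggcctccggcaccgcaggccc
LDHA, chr11:18394465-18394494, plus strand: agcccgactcaCACGTGggttcccgCACGT
HK2, chr2:74834065-74834094, plus strand: ccaatggGCGTGcgCACGTcactgatccgg
ENO2, chr12:6914449-6914478, plus strand: cacccgcgctcgtACGTGcgcctccgccgg
ADM, chr11:10304958-10304987, plus strand: gagagcaggagcgcGCGTGgctgaggaaag
ANKRD37, chr4:185396673-185396702, plus strand: gggctcCACGTGccagtgtttgtgtACGTG
ERO1A, chr14:52695655-52695684, minus strand: cgggcgccgcggCACGTccacaggctgggt
A match is a description of these letters and not a measured binding site. Genes with a match went in different directions: ENO2 and ADM rose in both knockouts, PGK1, GAPDH and HK2 rose in the CTCF-A knockout, LDHA fell in the CTCF-A knockout and rose in the CTCF-B knockout, and ANKRD37 and ERO1A passed in neither. PKM and SLC2A1 had no match in their windows, and both rose in the CTCF-A knockout and fell in the CTCF-B knockout.

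Values are the authors' normalized values on a log2 scale, on which a difference of 1 is 2-fold. Sequencing depth is unknown, because the table holds no counts. Differences between groups come from one limma model of all 12 libraries fitted to 11128 genes, and a gene is said to have risen or fallen when its adjusted p (Benjamini-Hochberg over all these genes) was under 0.05. Both knockouts are set against the same 4 wild-type libraries. Of the markers listed for the labelled cell type, 11 of 15 astrocyte and glioma genes were in the table (GFAP, VIM, NES, FABP7, SOX2, SOX9, SLC1A3, CD44, GJA1, PDGFRA and EGFR), whereas 0 of 6 microglia and 0 of 6 oligodendrocyte markers were, beside 1 of 6 epithelial, 1 of 5 endothelial and 4 of 8 neuronal markers. The summed level of the astrocyte markers was 17.42 to 17.59 in wild type, 16.91 to 17.05 in the CTCF-A knockout and 16.80 to 16.85 in the CTCF-B knockout, and that of the 4 neuronal markers 15.24 to 15.36, 15.73 to 15.93 and 13.70 to 13.88. In the CTCF-A knockout 7 of the 11 astrocyte markers fell and 0 rose, and in the CTCF-B knockout 9 fell and 0 rose. Of all genes 31.8% rose and 31.1% fell in the CTCF-A knockout, and 18.9% rose and 20.6% fell in the CTCF-B knockout. Of the 4 neuronal markers 2 rose and 0 fell in the CTCF-A knockout. In the CTCF-B knockout 1 of the 4 rose and 2 fell, with differences of -1.54 to 0.43. In bulk RNA fewer cells of a type and less RNA per cell cannot be told apart, and the part of these shifts in the values of glycolysis genes was not tested.

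The CTCF-A knockout libraries differ in one respect that touches many results. The fifth of genes with the highest GC content lay above the fifth with the lowest by 0.91, 0.45 and 0.64 in replicates 1, 2 and 3, relative to wild type, but by 0.09 in replicate 4, by -0.12 to 0.08 in wild type and by -0.08 to 0.03 in the CTCF-B knockout. Many CTCF-A knockout results below are therefore set beside the value after removal of the trend with GC content and transcript length, and beside the value from replicate 4 as the only CTCF-A knockout library. The second was added after the data had been seen.

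In the CTCF-A knockout the members mostly rose. Against wild type 20 of the 34 rose and 3 fell, with a median difference of 0.25, beside a median of 0.00 over all genes. Of all genes tested 62.9% were called, 31.8% higher and 31.1% lower, so the share of members called (67.6%) was near the background while the share higher (58.8%) was above it and the share lower (8.82%) below it. SLC16A3, ENO2, ADM and NDRG1 rose at least 2-fold, against 2.23% of all genes past 2-fold in either direction. After removal of the trend 21 rose and 4 fell, where 28.8% of all genes rose and 32.7% fell. With replicate 4 alone 17 rose and 4 fell, where 20.2% of all genes rose and 21.6% fell. By position of the libraries, all 4 were above all wild-type libraries in 17 members and below them in 3, where 25.7% and 22.1% of all genes (47.7% in all) did so. A total of 16 members kept call and direction under every alternative run: SLC2A1, SLC16A3, HK2, GPI, PFKP, GAPDH, PGK1, ENO2, PKM, PFKFB4, EGLN3, ADM, VEGFA and NDRG1 higher, SLC16A1 and LDHA lower.

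In the CTCF-B knockout the members were divided. Here 6 rose (SLC2A3, ENO2, LDHA, ADM, VEGFA and NDRG1) and 7 fell (SLC2A1, HK1, PFKL, PGAM1, PKM, PFKFB2 and PFKFB3), with a median of -0.02. Of all genes tested 39.4% were called, 18.9% higher and 20.6% lower, and the members' shares (38.2% called, 17.6% higher and 20.6% lower) lay near them. NDRG1 rose by more than 2-fold, as 1.42% of all genes did in either direction. By position, 8 members lay wholly above wild type and 11 wholly below, against 26.2% and 27.3% of all genes (53.6% in all). Of the 13 members called, 12 kept call and direction under every alternative run, the exception being PGAM1.

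**Figure D1:**
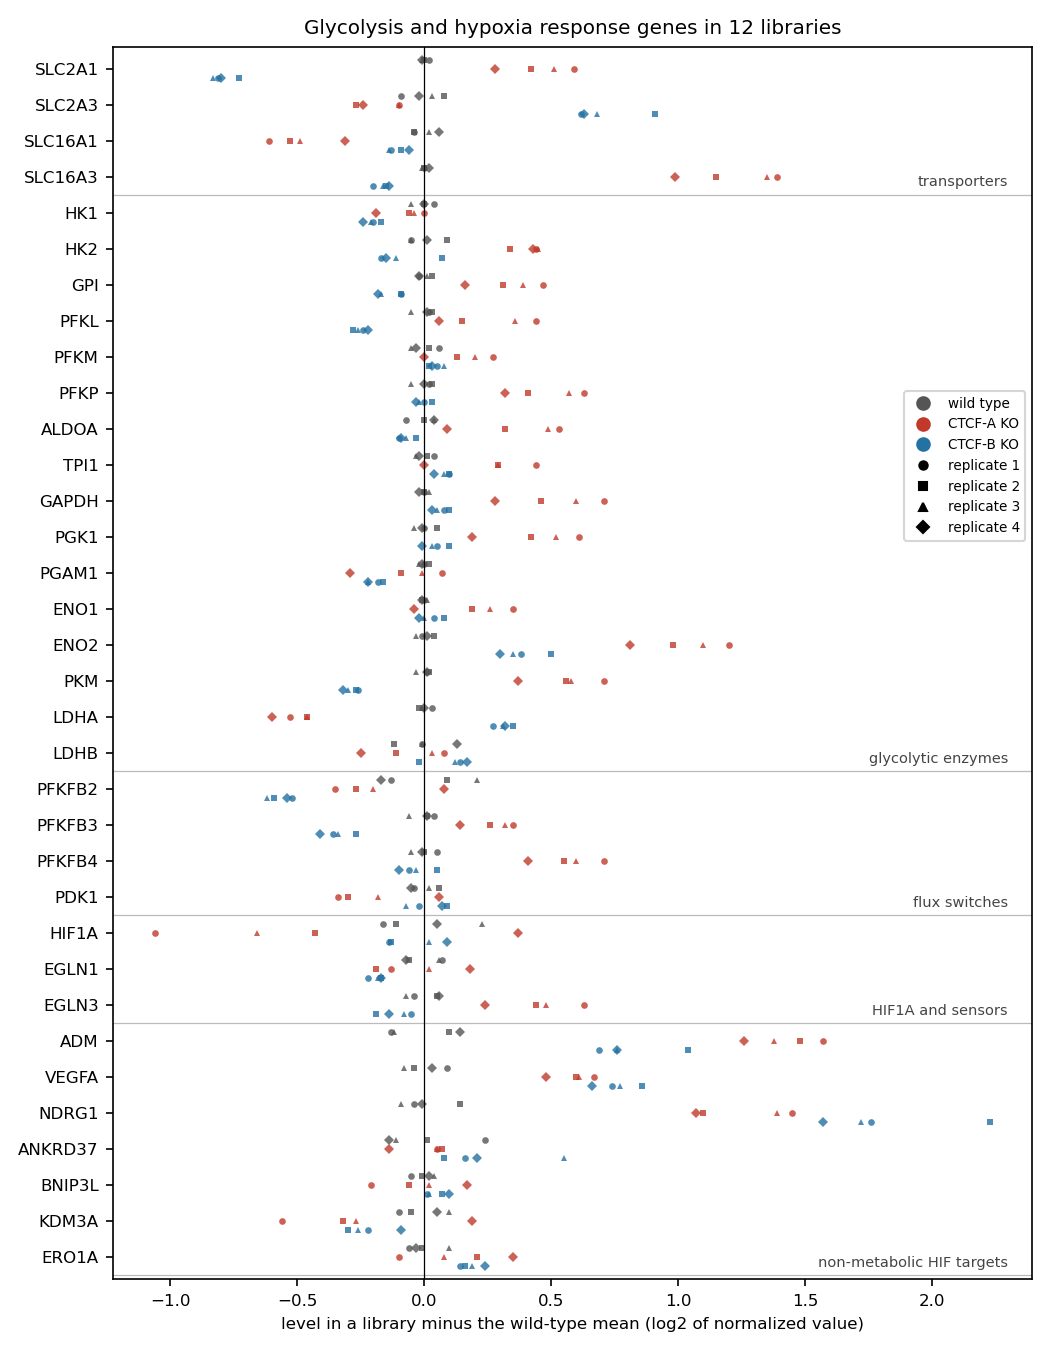
Level of each of the 34 genes in each of the 12 libraries minus the wild-type mean of that gene, on the log2 scale. Colour gives the group and symbol the replicate. CTCF-A knockout replicate 4 (red diamonds) was the lowest of its group in 24 genes and the highest in 8, and CTCF-B knockout replicate 2 (blue squares) was the highest of its group in 20.

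**Figure D2:**
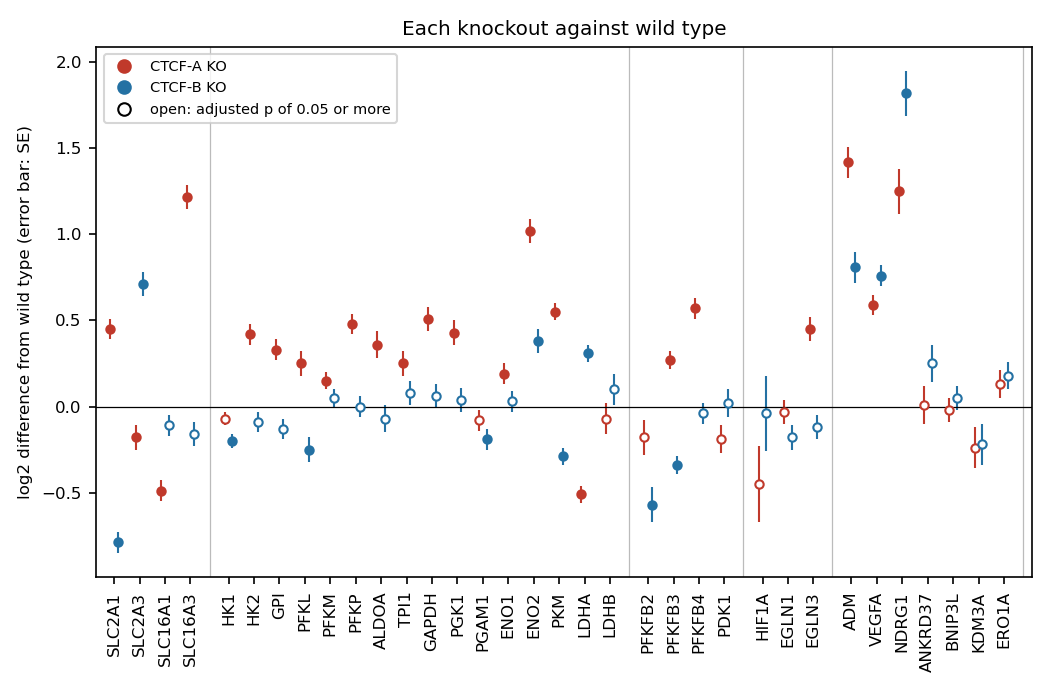
Difference of each knockout from wild type on the log2 scale, with the standard error of the limma model from 4 libraries per group. Filled points passed the test and open points did not. SLC2A1, PFKL, PKM and PFKFB3 lie above 0 in the CTCF-A knockout and below 0 in the CTCF-B knockout, SLC2A3 and LDHA the other way round, and ENO2, ADM, VEGFA and NDRG1 above 0 in both.

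Of the glucose transporters SLC2A1 fell and SLC2A3 rose in the CTCF-B knockout, and SLC2A1 rose in the CTCF-A knockout. SLC2A1 encodes GLUT1, the widespread basal glucose transporter (ENSG00000117394, chromosome 1, 42925375 to 42959176, GRCh38). Its level was 12.95, 12.93, 12.93 and 12.93 in wild type, 13.53, 13.36, 13.44 and 13.21 in the CTCF-A knockout, and 12.13, 12.21, 12.11 and 12.13 in the CTCF-B knockout. The 3 groups did not overlap. It rose 1.37-fold in the CTCF-A knockout (log2 0.45 ± 0.06, SE, adjusted p 2.07e-05) and fell to 0.578 of wild type in the CTCF-B knockout (-0.79 ± 0.06, adjusted p 1.85e-07). The rise was 0.27 with the trend removed and 0.28 with replicate 4 alone, both still called.

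SLC2A3 encodes GLUT3, a transporter of high affinity that is typical of neurons (ENSG00000059804, chromosome 12, 7919230 to 7936275). Wild-type libraries stood at 8.84, 9.01, 8.96 and 8.91, those of the CTCF-B knockout at 9.55, 9.84, 9.61 and 9.56, and those of the CTCF-A knockout at 8.83, 8.66, 8.83 and 8.69. The CTCF-B knockout lay wholly above wild type and the CTCF-A knockout just below it. The rise in the CTCF-B knockout was 1.64-fold (0.71 ± 0.07, adjusted p 5.19e-06). The fall in the CTCF-A knockout was small (-0.18 ± 0.07, adjusted p 0.0434) and was not called with the trend removed (-0.09, adjusted p 0.288), with replicate 4 alone (-0.24, adjusted p 0.0649) or when 1 of 6 libraries was left out (wild-type replicates 2, 3 and 4, CTCF-A knockout replicates 2 and 4, and CTCF-B knockout replicate 3). Per kilobase of exon, the level of SLC2A3 was 0.0478 of that of SLC2A1 in wild type, 0.0309 in the CTCF-A knockout and 0.135 in the CTCF-B knockout.

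Lactate leaves cells through monocarboxylate transporters, of which SLC16A3 (MCT4) is the export form typical of glycolytic cells and SLC16A1 (MCT1) works in both directions. SLC16A3 (ENSG00000141526, chromosome 17, 82228397 to 82261129) was at 12.34, 12.34, 12.32 and 12.35 in wild type, 13.73, 13.48, 13.69 and 13.33 in the CTCF-A knockout and 12.14, 12.19, 12.18 and 12.20 in the CTCF-B knockout. All CTCF-A knockout libraries were about 1 unit or more above every other library, a rise of 2.33-fold (1.22 ± 0.07, adjusted p 2.46e-08), and the difference was 1.01 with the trend removed and 0.99 with replicate 4 alone. All CTCF-B knockout libraries lay slightly below wild type, without passing the test (-0.16 ± 0.07, adjusted p 0.0858). A fit of the 8 libraries compared called this difference lower. SLC16A3 shares 5.4% of its exon bases with CSNK1D on the opposite strand, and the strand setting of the counting is not given.

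SLC16A1 went the other way in the CTCF-A knockout (ENSG00000155380, chromosome 1, 112911847 to 112957013). It was at 11.76, 11.77, 11.82 and 11.86 in wild type, 11.19, 11.27, 11.32 and 11.50 in the CTCF-A knockout, and 11.67, 11.71, 11.67 and 11.74 in the CTCF-B knockout. The CTCF-A knockout lay below wild type in every library. There the fall was to 0.714 (-0.49 ± 0.06, adjusted p 1.27e-05), or -0.30 with the trend removed and -0.31 with replicate 4 alone. The CTCF-B knockout libraries also lay below wild type, without passing the test (-0.11, adjusted p 0.158). That difference was called lower with the trend removed (adjusted p 0.00507) and with only the 8 libraries compared. Per kilobase of exon, SLC16A3 was at 0.855 of the SLC16A1 level in wild type, 2.79 times it in the CTCF-A knockout and 0.823 of it in the CTCF-B knockout. The within-library log2 difference of the pair ran from -0.27 to -0.19 in wild type, 1.08 to 1.78 in the CTCF-A knockout and -0.30 to -0.25 in the CTCF-B knockout, so the CTCF-A knockout stood clear of both other groups.

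**Figure D3:**
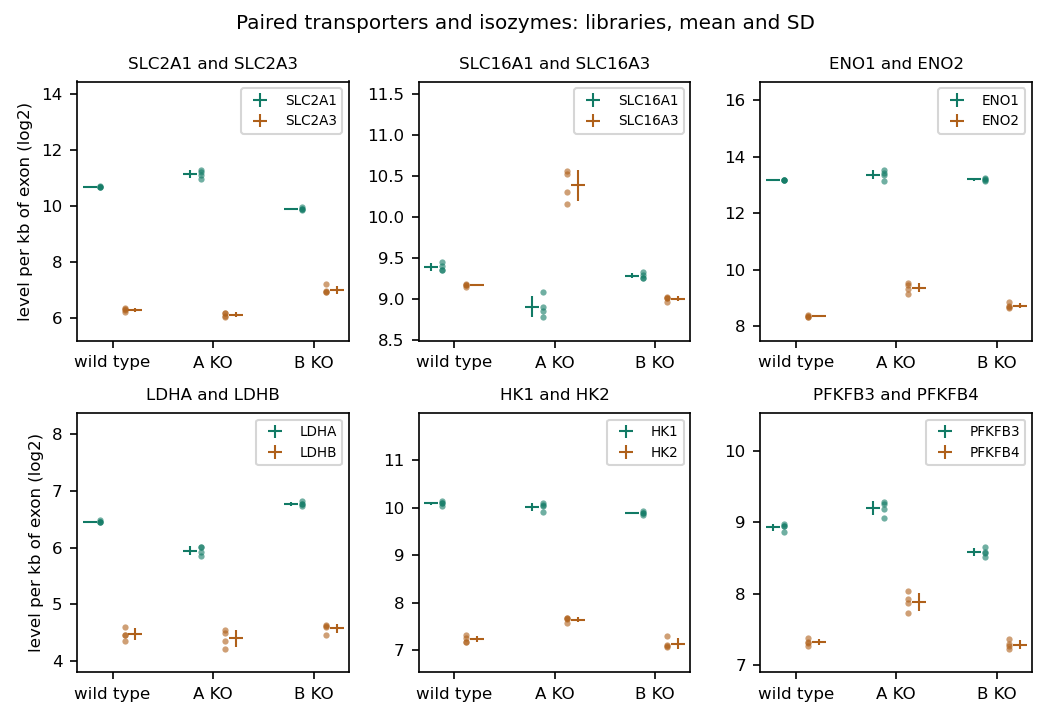
Levels per kilobase of exon (log2) of 6 pairs of related genes in wild type, the CTCF-A knockout (A KO) and the CTCF-B knockout (B KO), each point a library, with the mean and SD of 4 libraries beside the points. SLC16A3 lies below SLC16A1 in wild type and the CTCF-B knockout and above it in the CTCF-A knockout, where the ratio is 2.79.

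In the CTCF-A knockout 12 of the 16 glycolytic enzymes rose (75.0%) and 1 fell (LDHA, 6.25%). Of all genes tested 31.8% rose and 31.1% fell. The median difference of the enzymes was 0.29. That median was 0.09 with the GC and length trend removed and 0.08 with replicate 4 alone. With the trend removed 8 enzymes were called higher and 3 lower, where 28.8% of all genes rose and 32.7% fell. In the CTCF-B knockout 2 rose (ENO2 and LDHA), 4 fell (HK1, PFKL, PGAM1 and PKM) and the median was 0.01. In that knockout 18.9% of all genes tested rose and 20.6% fell, or 39.4% in all. By library, the median enzyme stood above the wild-type mean by 0.44, 0.30, 0.38 and 0.08 in CTCF-A knockout replicates 1 to 4 and by -0.02 to 0.03 in the CTCF-B knockout.

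Hexokinases trap glucose in the cell by phosphorylation, HK1 being the constitutive form and HK2 the inducible one. HK2 was at 9.78, 9.92, 9.78 and 9.85 in wild type and 10.27, 10.17, 10.29 and 10.26 in the CTCF-A knockout, with no overlap and a rise of 0.42 ± 0.06 (adjusted p 5.40e-05), or 0.36 with the trend removed and 0.43 with replicate 4 alone. It was at 9.66 to 9.90 in the CTCF-B knockout and overlapped wild type (-0.09, adjusted p 0.241). HK1 was at 12.70 to 12.79 in wild type and 12.51 to 12.58 in the CTCF-B knockout, a fall (-0.20 ± 0.04, adjusted p 0.00185). HK1 did not pass in the CTCF-A knockout (-0.07, adjusted p 0.150), but it was called lower with the trend removed (-0.22) and with replicate 4 alone (-0.19). HK2 per kilobase was 0.137 of HK1 in wild type, 0.193 in the CTCF-A knockout and 0.149 in the CTCF-B knockout.

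GPI, which turns glucose 6-phosphate into fructose 6-phosphate, rose in the CTCF-A knockout (0.33 ± 0.06, adjusted p 2.54e-04), with wild type at 13.43 to 13.49 and the CTCF-A knockout at 13.61 to 13.93. Its rise was 0.19 with the trend removed and 0.16 with replicate 4 alone, both called. In the other knockout all 4 GPI libraries (13.28 to 13.37) were below wild type without passing the test (-0.13, adjusted p 0.0783), and the difference was called lower with the trend removed (-0.12, adjusted p 0.00408) and with only the 8 libraries compared. Phosphofructokinase, the committed step, has platelet, liver and muscle forms. PFKP rose in the CTCF-A knockout by 0.48 ± 0.06, from 12.35 to 12.42 in wild type to 12.71 to 13.02, and its CTCF-B knockout libraries (12.37 to 12.43) overlapped wild type. The PFKP rise was 0.27 with the trend removed and 0.32 with replicate 4 alone. PFKL went up in the CTCF-A knockout (0.25 ± 0.07, adjusted p 0.00709) and down in the CTCF-B knockout (-0.25 ± 0.07, adjusted p 0.0119). The CTCF-A knockout rise of PFKL was 0.03 with the trend removed and 0.06 with replicate 4 alone, neither of them called, whereas the fall in the CTCF-B knockout was called both ways (-0.11 with the trend removed). PFKM had the smallest difference from wild type called in the CTCF-A knockout (0.15 ± 0.05, adjusted p 0.0260) with overlapping libraries, and lost the call when the trend was removed (0.01), with replicate 4 alone, and when 1 of 4 libraries was left out (wild-type replicates 3 and 4 and CTCF-A knockout replicates 1 and 3).

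In the middle of the pathway replicate 1 was the highest and replicate 4 the lowest CTCF-A knockout library in each of ALDOA, TPI1, GAPDH, PGK1, PGAM1 and ENO1. GAPDH, the dehydrogenase often used as a reference transcript, was at 15.79, 15.80, 15.82 and 15.77 in wild type and 16.51, 16.26, 16.40 and 16.08 in the CTCF-A knockout. It rose by 0.51 ± 0.07 (adjusted p 3.91e-05), with 0.28 under both other treatments of the CTCF-A knockout libraries, and all its CTCF-A knockout libraries were above wild type. GAPDH in the CTCF-B knockout stood at 15.83 to 15.89, above all wild-type libraries, but by 0.06 only and without passing the test (adjusted p 0.493). A fit of the 8 libraries compared called that difference, as did quantile normalization. GENCODE release 29 names 62 pseudogenes of GAPDH, and the part of shared reads in its level was not tested.

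PGK1, the first ATP-yielding kinase of the pathway, rose from 14.01 to 14.09 in wild type to 14.24 to 14.66 in the CTCF-A knockout (0.43 ± 0.07, adjusted p 1.80e-04). Its difference was smaller with replicate 4 alone (0.19) and larger with the trend removed (0.66, called). The longest PGK1 transcript has a GC content of 43.3%, against a median of 53.0% over the 16 enzymes. The part of this in the value of 0.66 was not tested. ALDOA, an aldolase, rose by 0.36 ± 0.08 (adjusted p 0.00186), and by 0.16 with the trend removed, but was not called with replicate 4 alone (0.09, adjusted p 0.255). ALDOA stood at only 9.01 ± 0.05 (mean ± SD, n = 4) in wild type, and 42.3% of its exon bases are shared with AC093512.2 on the same strand, so its level is uncertain. TPI1, triosephosphate isomerase, and ENO1, the main enolase, were called higher by 0.25 ± 0.07 and 0.19 ± 0.06 with overlapping libraries. Neither was called with the trend removed (0.02 and 0.00) or with replicate 4 alone, and under quantile normalization ENO1 was called lower (-0.14). The ENO1 call was also lost without CTCF-A knockout replicate 1 or 3. PGAM1, phosphoglycerate mutase, did not pass in the CTCF-A knockout (-0.08, adjusted p 0.263) and fell in the CTCF-B knockout (-0.19 ± 0.06, adjusted p 0.0206). It was called lower in the CTCF-A knockout with the trend removed (-0.28) and with replicate 4 alone (-0.29), while the CTCF-B knockout call was lost without wild-type replicate 2 or CTCF-B knockout replicate 3 or 4.

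ENO2, the neuronal enolase, rose in both knockouts (ENSG00000111674, chromosome 12, 6913745 to 6923698). It was at 10.44, 10.49, 10.42 and 10.46 in wild type, 11.65, 11.43, 11.55 and 11.26 in the CTCF-A knockout, and 10.83, 10.95, 10.80 and 10.75 in the CTCF-B knockout. The groups did not overlap. The rise was 2.03-fold in the CTCF-A knockout (1.02 ± 0.07, adjusted p 1.58e-07) and 1.30-fold in the CTCF-B knockout (0.38 ± 0.07, adjusted p 0.00103), and in the CTCF-A knockout 0.82 with the trend removed and 0.81 with replicate 4 alone. The CTCF-A knockout was higher than the CTCF-B knockout by 0.64 ± 0.07 (adjusted p 6.65e-06). Per kilobase, ENO2 amounted to 0.0355 of ENO1 in wild type, 0.0632 in the CTCF-A knockout and 0.0455 in the CTCF-B knockout.

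PKM, the pyruvate kinase of most non-liver cells, had the highest level per kilobase of all members after GAPDH (13.62 against 14.22 in wild type, log2; ENSG00000067225, chromosome 15, 72199029 to 72231822). Its level was 16.73, 16.74, 16.69 and 16.73 in wild type, 17.43, 17.28, 17.31 and 17.09 in the CTCF-A knockout, and 16.46, 16.45, 16.43 and 16.40 in the CTCF-B knockout. Again the 3 groups were apart, with the CTCF-A knockout above and the CTCF-B knockout below wild type. PKM rose 1.47-fold in the CTCF-A knockout (0.55 ± 0.05, adjusted p 2.61e-06; 0.37 with the trend removed and with replicate 4 alone) and fell to 0.818 in the CTCF-B knockout (-0.29 ± 0.05, adjusted p 9.02e-04). The table does not separate its M1 and M2 splice forms.

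LDHA, which reduces pyruvate to lactate, was the only enzyme that fell in the CTCF-A knockout (ENSG00000134333, chromosome 11, 18394388 to 18408425). It was at 9.12, 9.08, 9.08 and 9.09 in wild type, 8.56, 8.64, 8.64 and 8.49 in the CTCF-A knockout, and 9.37, 9.45, 9.41 and 9.41 in the CTCF-B knockout. No library of one group reached another group. LDHA fell to 0.702 in the CTCF-A knockout (-0.51 ± 0.05, adjusted p 1.16e-06) and rose 1.24-fold in the CTCF-B knockout (0.31 ± 0.05, adjusted p 1.33e-04). The fall was -0.47 with the trend removed and -0.60 with replicate 4 alone, so it was not smaller in that library, as the rises of GAPDH and PKM were. Per kilobase its wild-type level was 6.46 on the log2 scale, against 14.22 for GAPDH and 11.59 for PGK1. GENCODE names 6 pseudogenes of LDHA, and the part of shared reads in this level was not tested. LDHB, the heart-type subunit, was low (6.05 ± 0.10 in wild type), shares 33.4% of its exon bases with AC010197.2, and passed in neither knockout (-0.07 and 0.10). Its CTCF-A knockout value was -0.13 with the trend removed and -0.25 with replicate 4 alone, neither called.

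The bifunctional PFKFB enzymes set the level of fructose 2,6-bisphosphate, the activator of phosphofructokinase, and PDK1 keeps pyruvate out of mitochondria by inhibiting pyruvate dehydrogenase. PFKFB3, the form with the strongest kinase activity, was at 11.58, 11.55, 11.47 and 11.55 in wild type, 11.89, 11.79, 11.86 and 11.67 in the CTCF-A knockout, and 11.18, 11.27, 11.20 and 11.13 in the CTCF-B knockout. The groups were apart, with a rise of 0.27 ± 0.05 in the CTCF-A knockout (adjusted p 6.16e-04) and a fall in the CTCF-B knockout (-0.34 ± 0.05, adjusted p 1.51e-04). With replicate 4 alone the rise was 0.14 and was not called (adjusted p 0.0540), and with the trend removed it was 0.10 and called.

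PFKFB4 was at 9.99, 9.93, 9.88 and 9.92 in wild type and 10.64, 10.48, 10.53 and 10.34 in the CTCF-A knockout, a rise of 1.48-fold (0.57 ± 0.06, adjusted p 4.78e-06; 0.38 with the trend removed and 0.41 with replicate 4 alone), and overlapped wild type in the CTCF-B knockout (9.84 to 9.98). PFKFB2 fell in the CTCF-B knockout from 6.81 to 7.19 in wild type to 6.37 to 6.46 (-0.57 ± 0.10, adjusted p 7.30e-04) and did not pass in the CTCF-A knockout (-0.18, adjusted p 0.131). There PFKFB2 was at 0.11 with the trend removed and 0.08 with replicate 4 alone, neither called, and it was called lower without replicate 4, so no direction held. PDK1 passed in neither knockout. In the CTCF-A knockout it was at 7.97 to 8.37 against 8.26 to 8.37 in wild type (-0.19 ± 0.08, adjusted p 0.0520), and with the trend removed it was called higher (0.26, adjusted p 0.0150). With replicate 4 alone it was at 0.06 and not called, and without replicate 4 it was called lower.

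Among the regulators, HIF1A mRNA passed in neither knockout (ENSG00000100644, chromosome 14, 61695513 to 61748259). It was at 11.28, 11.33, 11.66 and 11.48 in wild type, 10.38, 11.01, 10.78 and 11.80 in the CTCF-A knockout, and 11.30, 11.31, 11.46 and 11.53 in the CTCF-B knockout. CTCF-A knockout replicates 1 to 3 lay below all wild-type libraries and replicate 4 above them. The difference was -0.45 ± 0.22 (adjusted p 0.0917). It was -0.14 with the trend removed, 0.37 and called higher with replicate 4 alone, and -0.72 and called lower without replicate 4. HIF1A has a low GC content (36.4% in its longest transcript, against a median of 48.7% over the genes tested). Its order over the CTCF-A knockout libraries (replicates 1, 3, 2, 4 from low to high) was the reverse of the order of their GC difference. The part of the GC trend in the HIF1A values was not tested.

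EGLN3, an oxygen sensor that is itself a HIF target, was at 8.22, 8.31, 8.19 and 8.31 in wild type and 8.88, 8.70, 8.73 and 8.50 in the CTCF-A knockout. It rose by 0.45 ± 0.07 (adjusted p 2.04e-04), or 0.33 with the trend removed and 0.24 with replicate 4 alone. EGLN3 in the CTCF-B knockout was at 8.07 to 8.21 and did not pass (-0.12, adjusted p 0.237). It was called lower there with the trend removed (-0.14, adjusted p 0.0335), but not when the replicate block was added. EGLN1, the main sensor of HIF1A, passed in neither knockout (-0.03 in the CTCF-A knockout and -0.18 in the CTCF-B knockout). With the trend removed it was called higher in the CTCF-A knockout (0.24, adjusted p 0.00159), but not with replicate 4 alone (0.18). All CTCF-B knockout libraries of EGLN1 (8.49 to 8.54) lay below wild type (8.64 to 8.77). That difference was called lower with only the 8 libraries compared, but not with the trend removed (-0.13, adjusted p 0.0553).

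Of the 7 non-metabolic HIF targets 3 rose in each knockout, and they were ADM, VEGFA and NDRG1 both times. None of the 7 fell. The share that rose was 42.9% each time, beside 31.8% of all genes in the CTCF-A knockout and 18.9% in the CTCF-B knockout. The median difference of the 7 was 0.13 in the CTCF-A knockout and 0.25 in the CTCF-B knockout, beside 0.29 and 0.01 for the enzymes. With the trend removed, 6 of the 7 were called higher in the CTCF-A knockout (all but ANKRD37), where 28.8% of all genes were. The median of the 7 was then 0.44, above the 0.09 of the enzymes. Which list had the larger median in the CTCF-A knockout thus changed when the trend was removed. With replicate 4 alone the medians were 0.35 for the 7 targets and 0.08 for the enzymes. Median GC content was 42.5% in the 7 targets and 53.0% in the 16 enzymes. The targets that rose were at 58.5% (ADM), 54.6% (VEGFA) and 52.1% (NDRG1). Those that did not pass were at 42.1% (ANKRD37), 38.9% (BNIP3L), 42.5% (KDM3A) and 38.7% (ERO1A). The part of GC content in these differences was not tested.

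ADM encodes adrenomedullin, a vasodilator peptide (ENSG00000148926, chromosome 11, 10304680 to 10307397). It was at 6.87, 7.10, 6.88 and 7.13 in wild type, 8.57, 8.47, 8.37 and 8.25 in the CTCF-A knockout, and 7.69, 8.03, 7.75 and 7.75 in the CTCF-B knockout. The groups did not overlap, and ADM rose 2.68-fold in the CTCF-A knockout (1.42 ± 0.09, adjusted p 9.34e-08) and 1.76-fold in the CTCF-B knockout (0.81 ± 0.09, adjusted p 2.24e-05). The CTCF-A knockout value was 1.19 with the trend removed and 1.26 with replicate 4 alone. The CTCF-A knockout exceeded the CTCF-B knockout by 0.61 ± 0.09 (adjusted p 9.93e-05).

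VEGFA, the angiogenic growth factor (ENSG00000112715, chromosome 6, 43770184 to 43786487), was at 10.57, 10.44, 10.40 and 10.52 in wild type, 11.15, 11.09, 11.10 and 10.96 in the CTCF-A knockout, and 11.23, 11.34, 11.26 and 11.14 in the CTCF-B knockout. Both knockouts lay wholly above wild type and overlapped each other. The rise was 1.51-fold in the CTCF-A knockout (0.59 ± 0.06, adjusted p 2.20e-06) and 1.69-fold in the CTCF-B knockout (0.76 ± 0.06, adjusted p 3.10e-07). The CTCF-A knockout value was 0.44 with the trend removed and 0.48 with replicate 4 alone. The CTCF-A knockout was lower than the CTCF-B knockout by a small margin (-0.17 ± 0.06, adjusted p 0.0181), a call that was lost without CTCF-B knockout replicate 2 and with equal library medians. That difference was larger with the trend removed (-0.41, adjusted p 2.18e-06) and with replicate 4 alone (-0.28, adjusted p 0.00486).

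NDRG1, a stress-responsive cytoplasmic protein, had the largest difference of all members (ENSG00000104419, chromosome 8, 133237171 to 133302022). Its libraries read 8.56, 8.74, 8.51 and 8.58 in wild type, 10.05, 9.70, 9.99 and 9.66 in the CTCF-A knockout, and 10.36, 10.82, 10.32 and 10.17 in the CTCF-B knockout. Each group was apart from the others. NDRG1 rose 2.38-fold in the CTCF-A knockout (1.25 ± 0.13, adjusted p 3.94e-06) and 3.53-fold in the CTCF-B knockout (1.82 ± 0.13, adjusted p 1.78e-07), and the CTCF-A knockout was below the CTCF-B knockout (-0.57 ± 0.13, adjusted p 0.00165). Its CTCF-A knockout value was 1.11 with the trend removed and 1.07 with replicate 4 alone. Leaving out single libraries moved the CTCF-B knockout value between 1.69 and 1.91.

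The other 4 targets did not pass in either knockout. ERO1A, an oxidase of the endoplasmic reticulum, stood at 0.13 ± 0.08 in the CTCF-A knockout and 0.18 ± 0.08 in the CTCF-B knockout, where all 4 libraries (10.11 to 10.20) were above wild type (9.90 to 10.07). It was called higher with the trend removed in both (0.52 and 0.17) and with replicate 4 alone in the CTCF-A knockout (0.35). BNIP3L, a mitophagy receptor, was at -0.02 and 0.05, and KDM3A, a histone demethylase, at -0.24 and -0.22, in the CTCF-A knockout and the CTCF-B knockout. Both were called higher in the CTCF-A knockout with the trend removed (0.25 and 0.12), whereas KDM3A was then called lower in the CTCF-B knockout (-0.17). With replicate 4 alone BNIP3L was called higher (0.17) and KDM3A was not called (0.19), and without replicate 4 KDM3A was called lower. ANKRD37, a small ankyrin-repeat protein, was low (6.01 ± 0.17 in wild type) and showed 0.01 and 0.25 (-0.14 in the CTCF-A knockout with replicate 4 alone and 0.03 with the trend removed, neither called), and 35.2% of its exon bases are shared with UFSP2 on the opposite strand.

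**Figure D4:**
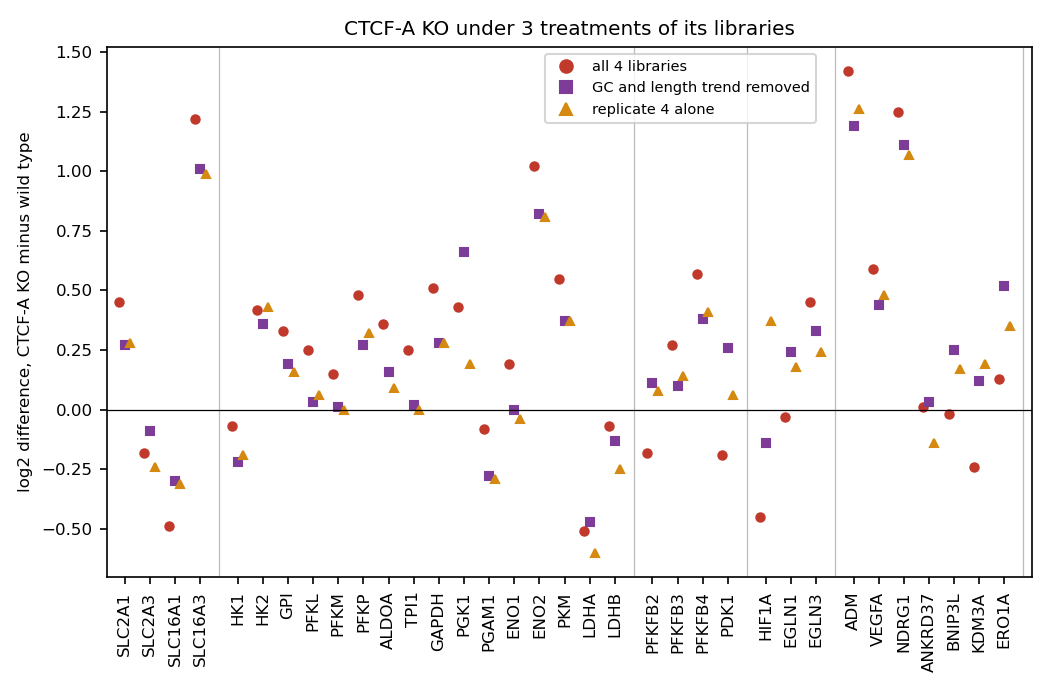
Difference of the CTCF-A knockout from wild type (log2) for each gene from all 4 libraries, after removal of the GC and length trend, and from replicate 4 alone. SLC16A3, ENO2, LDHA, ADM, VEGFA and NDRG1 stay on one side of 0, while HIF1A, PDK1, EGLN1, BNIP3L and KDM3A, among others, change sign between treatments.

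Set directly against each other, the knockouts differed in 25 of 34 members, 19 higher and 6 lower in the CTCF-A knockout, where 66.0% of all genes were called (33.4% higher and 32.6% lower). SLC16A3 (1.38 ± 0.07) and SLC2A1 (1.24 ± 0.06) were more than 2-fold higher in the CTCF-A knockout, against 3.26% of all genes past 2-fold in either direction, followed by PKM (0.84 ± 0.05), ENO2, PFKFB3 (0.61 ± 0.05), ADM, PFKFB4 (0.60 ± 0.06) and EGLN3 (0.56 ± 0.07). SLC2A3 (-0.89 ± 0.07), LDHA (-0.82 ± 0.05), NDRG1, SLC16A1 (-0.38 ± 0.06), PDK1 (-0.21 ± 0.08) and VEGFA were lower. PFKFB2 was higher in the CTCF-A knockout by 0.38 ± 0.10, having fallen in the CTCF-B knockout. The 4 libraries of one knockout were all above the 4 of the other in 16 members (higher in the CTCF-A knockout) and all below in 5, against 28.3% and 25.3% of all genes (53.5% in all). Of the 25, 19 kept call and direction under every alternative run, and the 6 that did not were HK1, TPI1, PGK1, ENO1, PDK1 and VEGFA. With the trend removed 20 members were higher and 7 lower, where 32.7% and 35.5% of all genes were, and with replicate 4 alone 20 and 7, where 27.6% and 26.9% were. The calls of TPI1 and ENO1 turned to lower under quantile normalization (-0.19 and -0.29).

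Genes around these pathways, taken from lists of other HIF targets and of neighbouring routes of glucose carbon, gave the following counts. Of 33 further HIF targets, 11 rose and 6 fell in the CTCF-A knockout, and 17 rose and 4 fell in the CTCF-B knockout. These are 33.3% and 18.2%, beside 31.8% and 31.1% of all genes, and 51.5% and 12.1%, beside 18.9% and 20.6%. The share that rose was near that of all genes in the CTCF-A knockout and above it in the CTCF-B knockout. The CTCF-A knockout count was 14 higher and 9 lower with the trend removed and 14 higher and 5 lower with replicate 4 alone. In the CTCF-A knockout HMOX1, heme oxygenase (2.01 ± 0.10), and the repressor BHLHE41 (0.97 ± 0.06) rose and the mitophagy receptor BNIP3 (-0.85 ± 0.06) fell. In the CTCF-B knockout LOX, a collagen crosslinking oxidase (1.47 ± 0.07), and the collagen prolyl hydroxylase P4HA2 (0.93 ± 0.06) rose and the repressor BHLHE40 (-0.84 ± 0.05) fell. Between the knockouts 11 of the 33 were higher and 17 lower in the CTCF-A knockout. These are 33.3% and 51.5%, beside 33.4% and 32.6% of all genes. BHLHE40 (1.17 ± 0.05) was higher in the CTCF-A knockout than in the CTCF-B knockout, and BNIP3 (-1.26 ± 0.06) and LOX (-1.35 ± 0.07) were lower.

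Regulators of HIF were split, with 8 higher and 5 lower of 19 in the CTCF-A knockout. These are 42.1% and 26.3%, beside 31.8% and 31.1% of all genes. In the CTCF-B knockout 4 were called each way (21.1%), near the 18.9% and 20.6% of all genes. With the trend removed the CTCF-A knockout count was 7 higher and 5 lower. ELOB, a subunit of the ligase that degrades HIF1A, rose in the CTCF-A knockout (0.94 ± 0.10), and the HIF partner ARNT2 (-0.85 ± 0.08) and the ubiquitin ligase SIAH1 (-0.66 ± 0.06) fell. Between the knockouts ELOB (1.02 ± 0.10) and RBX1 (0.54 ± 0.08) were higher and ARNT2 (-0.54 ± 0.08) was lower in the CTCF-A knockout. No gene of this list reached 0.5 in the CTCF-B knockout among those called.

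Of 13 genes that carry pyruvate into mitochondria or control its entry, 7 fell and 1 rose in the CTCF-A knockout. These are 53.8% and 7.69%, beside 31.1% and 31.8% of all genes. In the CTCF-B knockout 5 fell and 1 rose, or 38.5% and 7.69%, beside 20.6% and 18.9%. With the trend removed the CTCF-A knockout count was the same, and with replicate 4 alone 10 fell and 1 rose. PDPR, a regulator of pyruvate dehydrogenase phosphatase (-0.77 ± 0.05), and the complex subunits DLAT (-0.63 ± 0.05) and PDHX (-0.54 ± 0.05) fell in the CTCF-A knockout, also with the trend removed and with replicate 4 alone. Against the CTCF-B knockout, PDHX (-0.73 ± 0.05) and DLD (-0.55 ± 0.12) were lower and PDK2 (0.59 ± 0.06) higher in the CTCF-A knockout, and DLD was not called with replicate 4 alone.

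The pentose phosphate route branches from glucose 6-phosphate. Of its 12 genes 6 rose and 3 fell in the CTCF-A knockout, and 0 rose and 6 fell in the CTCF-B knockout. TKT, transketolase, rose in the CTCF-A knockout (0.61 ± 0.07) and fell in the CTCF-B knockout (-0.70 ± 0.07). TALDO1 (0.57 ± 0.08) rose and PGM2 (-0.53 ± 0.06) fell in the CTCF-A knockout. Directly compared, TKT was higher in the CTCF-A knockout (1.31 ± 0.07). The pentose phosphate count in the CTCF-A knockout was again 6 higher and 3 lower with the trend removed, where 28.8% of all genes rose and 32.7% fell. The median difference of the 12 was 0.16, and 0.0 both with the trend removed and with replicate 4 alone.

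Among 13 other glycolytic isozymes, glucose carriers and regulators, 6 rose and 4 fell in the CTCF-A knockout. These are 46.2% and 30.8%, beside 31.8% and 31.1% of all genes. In the CTCF-B knockout 1 rose and 4 fell, or 7.69% and 30.8%, beside 18.9% and 20.6%. The CTCF-A knockout balance turned to 5 higher and 6 lower with the trend removed and 4 higher and 5 lower with replicate 4 alone, and the median went from 0.14 to -0.08 and -0.06. G6PC3, a glucose 6-phosphatase, rose (0.69 ± 0.07) and SLC2A10 (-0.56 ± 0.09) and GPD2 (-1.03 ± 0.17) fell in the CTCF-A knockout, GPD2 to a smaller extent with replicate 4 alone (-0.40). In the CTCF-B knockout the mitochondrial enzyme PCK2 rose (1.08 ± 0.08), and the glucose carriers SLC2A6 (-0.99 ± 0.07) and SLC2A12 (-0.96 ± 0.08) fell beside SLC2A1. These 3 also differed between the knockouts (SLC2A6 1.30 ± 0.07, SLC2A12 1.29 ± 0.08, PCK2 -1.18 ± 0.08). Of 20 tricarboxylic acid cycle genes, 6 rose and 7 fell in the CTCF-A knockout. These shares (30.0% and 35.0%) lay near the 31.8% and 31.1% of all genes. In the CTCF-B knockout 1 rose and 7 fell, or 5.0% and 35.0%, beside 18.9% and 20.6%. IDH2 was lower in the CTCF-B knockout (-0.74 ± 0.07). For the CTCF-A knockout 5 of the cycle genes were higher and 6 lower with the trend removed, and 2 higher and 5 lower with replicate 4 alone, with medians of -0.03 and -0.08 instead of 0.08. Against the CTCF-B knockout, IDH2 (0.95 ± 0.07) and SDHC (0.63 ± 0.06) were higher in the CTCF-A knockout.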

How the data were processed

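The 37 genes and all lists were chosen with earlier results of these data known. Per the submitters' processing notes, Trimmomatic 0.33, featureCounts and DESeq2 were used with build GRCh38.p7. Aligner, annotation, strand setting and gene filter are not given in the sources used here. The authors deposited normalized values on a log2 scale (1.34 to 17.97, from the values), so depth is unknown and no counting interval is given.

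Genes at a linear value of at least 10 in at least 4 of 12 libraries were kept (11128, with 50 removed). One mean per group was fitted with limma 3.58.1 (R 4.3.3, trended empirical Bayes variance), with two-sided tests and a Benjamini-Hochberg adjusted threshold of 0.05. The fit was tested on simulated data. The trend with GC content and length of the longest GENCODE 29 transcript was removed per library with natural splines of 5 and 4 degrees of freedom and their product (99.7% of genes). Levels between genes are per kilobase of merged exons. Positions are GRCh38. Every member is named. From each other list, up to 3 genes per comparison with the smallest adjusted p under 0.05 and an absolute difference of at least 0.5 are named. Some genes that this rule selects are not reported here. Alternatives: no filter, quantile normalization, equal medians, 8 libraries only, no variance trend, replicate block, trend removed, each library left out, and CTCF-A knockout replicate 4 as its only library (added later).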

Additional observations from a re-analysis of the deposited data

Results flagged for a closer look

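Each gene was screened in each group of 4 libraries for a library far from the other 3, which chance alone gives in about 1 of 20 groups. Of 102 groups 1 was found: ANKRD37 in the CTCF-A knockout, where replicate 4 stood at 5.87 and the other 3 at 6.05 to 6.08.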

How the results depend on the processing

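Depth is unknown and limits low genes in an unknown way. A total of 16 of 23 calls against wild type in the CTCF-A knockout, 12 of 13 in the CTCF-B knockout and 19 of 25 between the knockouts kept their direction and side of the threshold under every alternative. Causes of the moves below were not tested. Genes called fell from 7002 to 4654 with CTCF-A knockout replicate 4 as its only library, an alternative chosen after seeing the data that leaves 1 library in that group, assumed to vary like the others. For the CTCF-B knockout they went from 4389 to 6601 with only the 8 libraries compared and 6604 with that single library. Members called lower in the CTCF-A knockout were 5 instead of 3 under quantile normalization and 2 to 6 with single libraries left out (6 without CTCF-A knockout replicate 4). In the CTCF-B knockout 11 members instead of 6 were higher under quantile normalization, where 4536 of all 11128 genes were called in either direction. With only the 8 libraries compared 12 instead of 7 were lower, where 6601 of all genes were called. With the trend removed 11 were lower, where 5943 of all genes were called (5925 with the replicate block). With single libraries left out 6 to 12 were lower (12 without CTCF-A knockout replicate 4, where 5824 of all genes were called).

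The enzyme median against wild type in the CTCF-A knockout (0.29) became 0.09 with the trend removed, with or without replicate block, and 0.08 with the single library. It became 0.06 in the CTCF-B knockout under quantile normalization, and between the knockouts (0.41) 0.13 under quantile normalization, 0.20 with the trend removed and 0.15 with the single library. The median of the non-metabolic targets in the CTCF-A knockout (0.13) became 0.22 with equal medians, 0.44 with the trend removed, 0.35 with the single library and 0.06 to 0.21 with single libraries left out. For the CTCF-B knockout (0.25) it became 0.20 with the trend removed and 0.18 to 0.33 with single libraries left out, and between the knockouts (-0.07) 0.00 with equal medians, 0.23 with the trend removed and 0.12 with the single library.

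Among differences called before or after the change of setting, directions turned as follows against wild type in the CTCF-A knockout (turns of differences called in neither are not listed). With the trend removed, with or without replicate block, PDK1 was at 0.26, EGLN1 at 0.24, BNIP3L at 0.25 and KDM3A at 0.12. With the single library PFKM was at -0.0010, TPI1 at -0.0042, ENO1 at -0.04, HIF1A at 0.37 and BNIP3L at 0.17, and under quantile normalization ENO1 was at -0.14. Between the knockouts, by the same criterion, quantile normalization gave HK1 -0.03, TPI1 -0.19 and ENO1 -0.29. Trend removal gave HK1 -0.02, TPI1 -0.01, PGAM1 -0.05, PDK1 0.19, BNIP3L 0.23, KDM3A 0.29 and ERO1A 0.35. The single library gave TPI1 -0.08, PGAM1 -0.09, ENO1 -0.07, PDK1 0.04, HIF1A 0.41, KDM3A 0.41 and ERO1A 0.16.

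The correlations did not settle whether the replicate numbers pair the libraries. Same-numbered libraries correlated at -0.32 to 0.43 and those of different number at -0.51 to 0.50. Some libraries, but not every one, correlated best with their own number. With the replicate block 7060 genes were called in the CTCF-A knockout, 4414 in the CTCF-B knockout and 7420 between the knockouts. Among members the block ended the call of SLC2A3 and added HIF1A and KDM3A as lower in the CTCF-A knockout, and changed no other call.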

Other observations

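CTCF-B knockout replicate 2 was the highest of its group in 20 of the 34 genes, among them SLC2A1, SLC2A3, ENO2, LDHA, PFKFB3, ADM, VEGFA and NDRG1, and the lowest in 6. CTCF-A knockout replicate 1 was the highest of its group in 22 and replicate 4 the lowest in 24. In wild type replicate 3 was the lowest in 16 and the highest in 7.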
